A study of Mus musculus with 6 samples.

Results

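The 10 genes described here make NAD from tryptophan or recycle it from its vitamin forms, or draw intermediates away from these routes: Afmid, Kmo, Kynu, Haao, Qprt and Acmsd of the kynurenine route, and Nampt, Nmnat1, Nadsyn1 and Nnmt of salvage and the steps shared with it. They were taken by gene symbol from the 24422 genes of the count tables, with earlier results of these data known. All 10 were found, and the lowest count of any of them in any library was 29, so all 10 were among the 15171 genes that passed the filter on low counts.

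NAD (nicotinamide adenine dinucleotide) carries electrons through central metabolism and is consumed by sirtuins, poly(ADP-ribose) polymerases and the ectoenzyme CD38. Cells build it anew from tryptophan along the kynurenine route, from nicotinic acid, or by salvage of the nicotinamide that NAD consuming enzymes release. Liver and kidney are the organs known to run the whole route from tryptophan, and in the kidney its enzymes lie mainly in the proximal tubule, the segment that reabsorbs most of the filtrate.

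RNA sequencing was performed on whole kidneys of C57BL/6 mice at postnatal day 60, on an iron sufficient diet with 220 ppm iron. The control group held 3 wild type libraries, and the TfR1KO;KspCre group (genotype label Tfr1f/f;KspCre) held 3 libraries, called knockouts here. In the knockouts exons 3 and 4 of the transferrin receptor gene Tfrc (TfR1) are floxed, and Cre is under the Ksp-cadherin promoter of the distal nephron, so cells outside that domain keep the gene. The comparison asks which kidney transcripts differ between kidneys with and without this deletion. At this age the study reports kidney failure, anemia, weight loss, cysts and bands of fibrosis in mice of this genotype. By staining, it found their cortical proximal tubules little affected. Loss of iron uptake and the state of the diseased kidney cannot be told apart in these libraries. The sex of each animal is not in the labels, and nothing in them says which libraries share a litter, so the p-values measure the spread between these libraries.

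Total counts ranged from 11501053 to 21001341, the lowest being knockout 3, where the ribosomal RNA gene Rn45s also took 2.59% of counts against 0.506% to 0.745% elsewhere. Control 2 stood apart in sex-linked transcripts, with 52 counts of Xist and 3980 of 4 Y-linked genes, where the other 5 libraries had 10458 to 23845 and 3 to 5. By these transcripts control 2 was male and the other 5 libraries female, so the groups were not balanced for sex. On the first principal component, which held 71.1% of the variance, the controls lay between -60.39 and -42.75, knockouts 2 and 3 at 75.0 and 69.9, and knockout 1 between them at 5.47. Transcripts of the targeted gene Tfrc did not separate the groups, at 138.5, 167.9 and 61.95 CPM (counts per 1000000, TMM-normalised) in controls 1 to 3 and 214.4, 85.96 and 40.6 CPM in knockouts 1 to 3, with knockout 1 the highest of the 6 libraries (log2 fold change -0.11 ± 0.618 SE, edgeR adjusted p = 0.911), nor did those of Cdh16, which encodes Ksp-cadherin (-0.26 ± 0.291, adjusted p = 0.545), so neither served as a check of the labels.

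All 6 kynurenine route genes had lower fitted levels in the knockouts, and Acmsd, Haao and Afmid fell past the test to between 22.8% and 30.2% of control. Among the 4 salvage and shared genes, Nadsyn1 fell to 50.3% of control and Nnmt, which methylates nicotinamide and so removes it from salvage, rose 3.18-fold. Together 4 of the 10 were called lower and 1 higher by edgeR's quasi-likelihood test at an adjusted p under 0.05, beside 6.64% of all tested genes called lower and 10.6% called higher. With the ratio of Xist to Y-linked transcripts as a covariate, in which control 2 stood apart, edgeR called 0 of the 10 and 0 of all tested genes, with 7 of the 10 lower and 1 higher at an unadjusted p under 0.05. The median of the 10 log2 fold changes was -1.40, beside 0.02 over all tested genes. In 7 of the 10 all knockouts lay below all controls, an order met by 22.2% of tested genes, and in Nnmt all lay above, an order met by 23.8%. In all 10 genes knockout 1 was the knockout nearest to the control mean. In whole tissue, fewer cells of a type and less RNA per cell cannot be told apart.

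**Figure D1:**
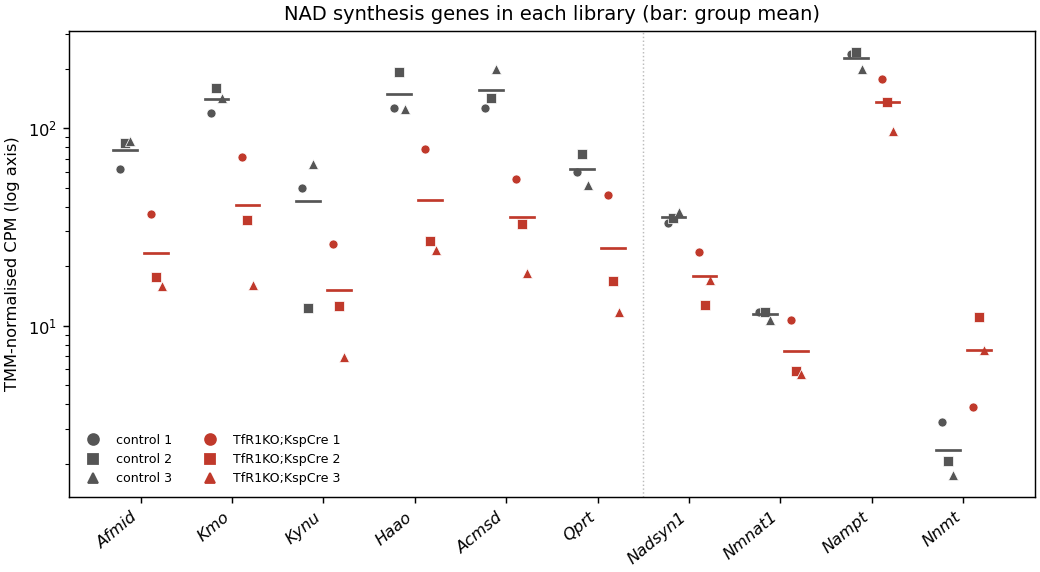
TMM-normalised counts per 1000000 (CPM, log axis) of the 10 genes in each of 3 control (grey) and 3 TfR1KO;KspCre (red) libraries, with kynurenine route genes left of the dotted line and salvage and shared genes right of it, and bars at group means. Control 2 lies at 12.3 CPM for Kynu, far below the other controls, and the knockouts lie above the controls in Nnmt.

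Afmid, the formamidase that frees kynurenine, stood at 62.5, 84.6 and 86.4 CPM in controls 1 to 3 and at 36.7, 17.7 and 15.9 CPM in knockouts 1 to 3. The groups did not overlap, and the fall passed the test (log2 fold change -1.73 ± 0.342 SE, edgeR adjusted p = 0.0309). Kmo, the mitochondrial hydroxylase that turns kynurenine into 3-hydroxykynurenine, read 120.1, 160.9 and 143.1 CPM in controls and 71.9, 34.4 and 16.1 CPM in knockouts. Its groups did not overlap either, but its adjusted p of 0.050016 lay just past the threshold (edgeR log2 fold change -1.79 ± 0.494), so it was not called. Kynu, the kynureninase that yields 3-hydroxyanthranilate, had 1004, 210 and 1092 counts in controls and 526, 252 and 91 in knockouts, or 49.95, 12.3 and 65.6 against 25.8, 12.7 and 6.97 CPM. Here control 2, the library with Y-linked transcripts, was as low as the knockouts, the groups overlapped, and the gene was not called (log2 fold change -1.49 ± 0.674, edgeR adjusted p = 0.152). Leaving out each library in turn moved its log2 fold change from -2.12 (without knockout 1) to -1.04 (without control 3), and without control 2 it was -1.94 (edgeR adjusted p = 0.121).

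Haao, the dioxygenase that opens the ring of 3-hydroxyanthranilate, was measured at 126.5, 193.4 and 125.2 CPM in controls and at 78.9, 26.9 and 24.2 CPM in knockouts. Knockouts 2 and 3 were close to each other, at 18.1% and 16.3% of the control mean, while knockout 1 kept 53.2%, and the gene passed the test narrowly (log2 fold change -1.77 ± 0.483, edgeR adjusted p = 0.0486). The product of Haao is the branch point of the route, since it either closes by itself to quinolinate, the substrate of Qprt, or is decarboxylated by Acmsd and leaves NAD synthesis. Qprt, which commits quinolinate to NAD, gave 60.0, 74.2 and 51.7 CPM in controls and 45.9, 16.9 and 11.7 CPM in knockouts, with no overlap. It was not called (log2 fold change -1.31 ± 0.487, edgeR adjusted p = 0.0960). Acmsd showed 126.8, 142.8 and 199.0 CPM in controls and 55.4, 32.7 and 18.5 CPM in knockouts, which left 35.5%, 21.0% and 11.8% of the control mean. Its log2 fold change of -2.13 ± 0.403 was the most negative of the 10 (edgeR adjusted p = 0.0303).

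In the mm9 annotation (GENCODE M1) Acmsd lies on chromosome 1 from 129625990 to 129664141 on the plus strand, Kmo on chromosome 1 from 177550512 to 177592247 on the plus strand, and Haao on chromosome 17 from 84230696 to 84246130 on the minus strand. Afmid, on chromosome 11 from 117670982 to 117701222 on the plus strand, shares 219 exonic bases (5.84%) with its neighbours Syngr2 and Tk1. Reads over those bases cannot be assigned to Afmid with certainty, since the strand setting of the counting is not given in the sources used here. Qprt (chromosome 7, 134250628 to 134265740, minus strand), Nadsyn1 (chromosome 7, 150981489 to 151008754, minus), Kynu (chromosome 2, 43410849 to 43538235, plus) and Nnmt (chromosome 9, 48399982 to 48413258, minus) overlap no other gene. Nampt lies on chromosome 12 from 33505200 to 33538234 on the plus strand and Nmnat1 on chromosome 4 from 148841681 to 148859311 on the minus strand. Kmo, Nampt and Nmnat1 share no exonic base with the genes they overlap, and Haao and Acmsd overlap none. In all 10 genes every 100-base word of the longest protein-coding transcript was unique to the gene.

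Promoters of 250 bases before to 50 after the start were taken for 7 of the 10 genes from the RefSeq table (GRCm38.p6). Those of the kynurenine route were read on both strands for GTTAAT, part of the site of HNF1 factors, and CAAAGT, the core of the HNF4 site. Both are hepatocyte nuclear factors that also act in the proximal tubule. Kmo and Haao are shown, since each held a match. Capitals mark a match, shown 5′ to 3′ on the strand of the gene:
Kmo, chr1:175631943-175632242, plus strand: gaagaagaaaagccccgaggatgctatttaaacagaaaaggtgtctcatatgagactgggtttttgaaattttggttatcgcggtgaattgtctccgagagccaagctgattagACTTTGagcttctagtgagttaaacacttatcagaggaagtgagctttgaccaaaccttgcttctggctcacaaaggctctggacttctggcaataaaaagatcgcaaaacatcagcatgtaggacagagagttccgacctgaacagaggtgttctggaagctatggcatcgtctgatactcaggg
Haao, chr17:83846741-83847040, minus strand: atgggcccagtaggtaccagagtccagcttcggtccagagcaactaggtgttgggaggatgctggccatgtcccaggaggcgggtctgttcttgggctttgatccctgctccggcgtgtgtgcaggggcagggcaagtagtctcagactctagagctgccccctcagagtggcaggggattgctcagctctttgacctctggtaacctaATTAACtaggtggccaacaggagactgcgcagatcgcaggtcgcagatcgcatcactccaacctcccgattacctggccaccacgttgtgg
Kmo held 1 CAAAGT, on the opposite strand at bases 115 to 120 of the window, and Haao held 1 GTTAAT, on the opposite strand at bases 210 to 215. Over the 4 kynurenine route promoters read, each word was found in 1, where 7.1% of all 32850 promoters held GTTAAT and 14.4% held CAAAGT. The windows also differed in base composition, with 44.3% G and C in Kmo and 58.7% in Haao beside a median of 52.7% over all promoters. A match of these letters is a description of the window and shows no binding.

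Nampt, the rate-limiting enzyme of salvage, which turns nicotinamide into nicotinamide mononucleotide, lay at 238.8, 242.4 and 200.6 CPM in controls and at 177.1, 135.8 and 97.1 CPM in knockouts. The groups did not overlap, but the difference missed the threshold (log2 fold change -0.73 ± 0.238, edgeR adjusted p = 0.0709). Nmnat1, the nuclear enzyme that joins the mononucleotides of both routes to adenylate, showed 11.8, 11.8 and 10.7 CPM in controls and 10.7, 5.87 and 5.67 CPM in knockouts. Knockout 1 reached the lowest control, and the gene was not called (log2 fold change -0.62 ± 0.298, edgeR adjusted p = 0.171). Nadsyn1, which amidates nicotinic acid adenine dinucleotide to NAD, was tight in the controls at 33.2, 35.03 and 37.8 CPM and lower in knockouts at 23.6, 12.7 and 17.1 CPM. Its fall passed the test (log2 fold change -0.99 ± 0.234, edgeR adjusted p = 0.0378), and unlike the kynurenine route genes it was lowest in knockout 2, at 35.9% of the control mean.

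Nnmt had the fewest reads of the 10 summed over the libraries, with 65, 35 and 29 counts in controls and 79, 221 and 98 in knockouts, or 3.23, 2.06 and 1.74 against 3.88, 11.1 and 7.51 CPM. Knockout 1 lay just above control 1, and the rise was carried by knockouts 2 and 3. The log2 fold change of 1.67 ± 0.459 passed the threshold narrowly (edgeR adjusted p = 0.0498). Nnmt is known to be high in fat and in activated fibroblasts. Summed fibroblast markers stood at 218%, 808.2% and 881.6% of the control mean in knockouts 1 to 3, with 5 of 10 called higher and none of the 10 at 0 in all libraries. The summed level of 6 adipocyte markers ran from 125.6 to 241.5 CPM in controls and from 48.0 to 629.1 CPM in knockouts, lowest in knockout 1, and none of the 6 was called. The part of these cells in the Nnmt result was not tested.

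**Figure D2:**
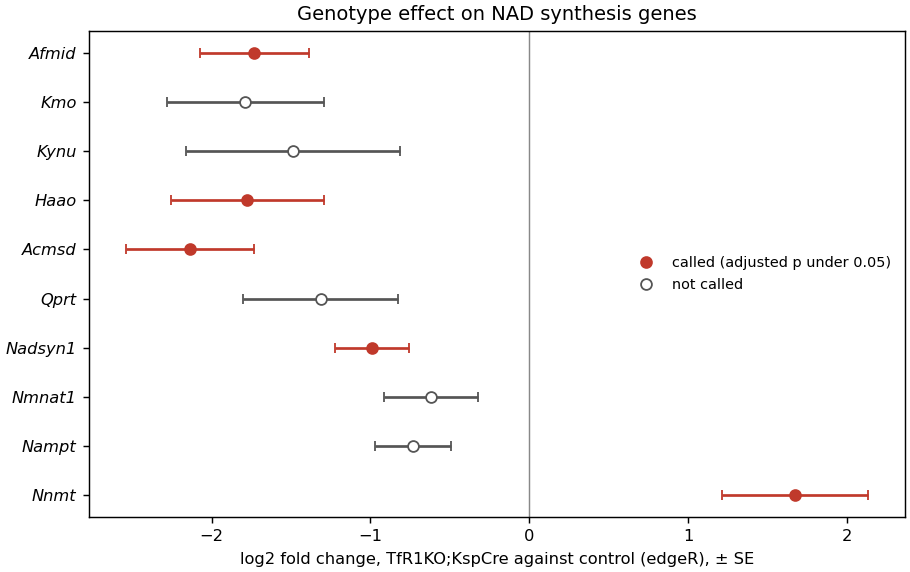
Log2 fold change of each gene in the 3 TfR1KO;KspCre libraries against the 3 controls with its standard error (edgeR, horizontal axis), with called genes filled red and others open. Acmsd (-2.13), Haao (-1.77), Afmid (-1.73) and Nadsyn1 (-0.99) were called lower and Nnmt (1.67) higher, while Kmo (-1.79) lay past Haao in size but had the larger standard error.

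Haao, Kmo and Nnmt lay on either side of the threshold by small margins, so the count of calls depends on the tool and its settings. Kmo was also called, for 5 lower calls, with DESeq2 size factors, upper quartile scaling, no filter, limma-voom or the newer quasi-likelihood version. Those fits called 915 to 1145 genes lower over all tested genes. DESeq2, with which the study itself tested genes, called 7 of the 10 lower by its Wald test. It added Kmo, Qprt and Nampt to the lower calls of the main fit, where it called 15.0% of all tested genes lower. Leaving out knockout 1 gave 8 lower calls, with Nmnat1 added to those 7, against 16.4% of all tested genes called lower in that fit, and the log2 fold change of Haao then read -2.55, that of Kmo -2.49 and that of Qprt -2.12. Leaving out any other library gave 0 lower calls among the 10, with 6 or 7 lower at an unadjusted p under 0.05, and Nnmt then lost its call too. Those fits called 0 to 6 genes lower over all tested genes, so these losses are not particular to the 10. No gene of the 10 changed direction under any of the 16 alternatives run for it.

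Per kilobase of exon, control levels ran from Haao at 121.4 ± 31.9 CPM per kb (SD, n = 3) through Acmsd at 67.8 ± 16.5, Nampt at 49.98 ± 5.10, Kmo at 29.9 ± 4.34, Qprt at 23.4 ± 4.31 and Afmid at 20.7 ± 3.55 to Nadsyn1 at 10.7 ± 0.699, Kynu at 5.70 ± 3.66, Nmnat1 at 3.76 ± 0.207 and Nnmt at 1.49 ± 0.499. The ranges of neighbours overlapped for Kmo and Qprt, for Qprt and Afmid, and for Kynu and Nmnat1, so their order is not settled by these libraries. In the knockouts the means of Haao (35.4 ± 25.2 CPM per kb), Nampt (30.1 ± 8.79) and Acmsd (15.4 ± 8.09) had overlapping ranges, and the mean of Haao was carried by knockout 1, Nampt being above Haao in knockouts 2 and 3. The knockout means of Nnmt (4.75 ± 2.29), Nmnat1 (2.44 ± 0.938) and Kynu (2.03 ± 1.29) had overlapping ranges too.

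Summed over the 6 kynurenine route genes, knockouts 1 to 3 held 50.1%, 22.5% and 14.9% of the control mean, and summed over the 4 salvage and shared genes they held 77.9%, 59.9% and 46.1%. The latter sum is mostly Nampt, with 227.3 of 276.4 CPM in the control mean, and it includes Nnmt, which rose. Within a library, the log2 ratio of Nampt to Qprt, salvage against synthesis from tryptophan, was 1.99, 1.71 and 1.96 in controls and 1.95, 3.00 and 3.05 in knockouts. Knockouts 2 and 3 stood above all controls and knockout 1 among them, a mean difference of 0.78 (two-sided exact permutation p = 0.3). The log2 ratio of Acmsd to Qprt, the enzymes that share the branch point, was 1.08, 0.94 and 1.94 in controls and 0.27, 0.95 and 0.65 in knockouts, a mean difference of -0.70 (exact permutation p = 0.2) with overlapping groups. The log2 ratio of Nnmt to Nampt, methylation against salvage of nicotinamide, was -6.20, -6.86 and -6.82 in controls and -5.50, -3.61 and -3.69 in knockouts. These did not overlap, and the mean difference of 2.36 had an exact permutation p of 0.1, the smallest that 3 against 3 libraries can give. Adjusted over the 3 ratios, each p was 0.3.

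The 6 kynurenine route genes and 16 proximal tubule markers, each taken as a sum, were lower in every knockout than in any control, although Kynu by itself was low in control 2 as well. Of those markers, among them the endocytic receptor Lrp2 and the phosphate transporter Slc34a1, 11 were called lower and none higher, their log2 fold changes having a median of -2.03, and none was at 0 in all libraries. Their summed level ran from 21720 to 29440 CPM in controls and was 11920, 4717 and 3601 CPM in knockouts 1 to 3, which is 44.7%, 17.7% and 13.5% of the control mean. Markers of injured tubule (5 of 7 called higher) and macrophages (11 of 12) also differed, with summed macrophage markers at 294.2%, 1057% and 410.1% of control. Over all tested genes 6.64% were called lower and 10.6% higher, and edgeR fits without any 1 control called 0 genes. Of 8 markers of the thick ascending limb none was called (median log2 fold change -1.50), but their summed level was 71.9%, 10.15% and 13.1% of the control mean in knockouts 1 to 3. Of 9 of the distal convoluted tubule and collecting duct 1 was called lower, with sums at 112.6%, 56.0% and 20.8%. The part of these cells in the results was not tested.

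**Figure D3:**
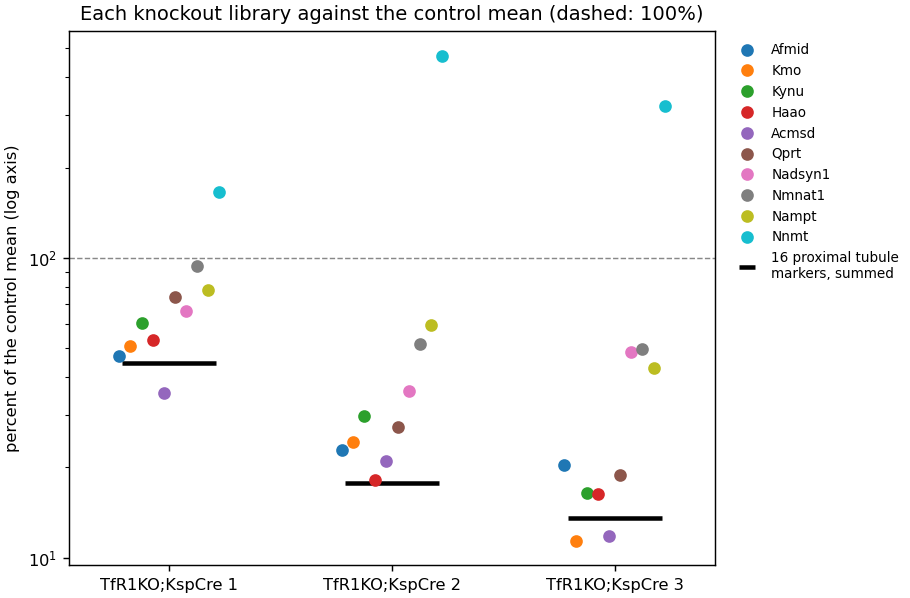
Level of each of the 10 genes in each TfR1KO;KspCre library as a percent of the control mean (log axis, 1 point per gene, spread sideways for legibility), with the summed level of 16 proximal tubule markers as a black bar. The bar stands at 44.7%, 17.7% and 13.5% in knockouts 1 to 3. Acmsd and Kmo lie below it in knockout 3. Haao, Kynu, Afmid, Qprt, Nadsyn1, Nampt and Nmnat1 lie above it in all knockouts, Haao only narrowly in knockouts 2 and 3, and Nnmt lies above 100%.

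Set against the mean log2 level of those 16 markers in the same library, the groups overlapped for Haao, Kmo, Acmsd and Kynu, with mean differences of 0.13, 0.06, -0.15 and 0.73 on the log2 scale. Kmo relative to the markers was -3.11, -2.99 and -3.30 in controls and -2.92, -2.83 and -3.46 in knockouts. Afmid and Qprt were relatively higher in all knockouts than in all controls, by 0.28 and 0.56. The salvage and shared genes were relatively higher too, by 1.31 for Nampt, 1.07 for Nadsyn1, 1.44 for Nmnat1 and 3.498 for Nnmt, all without overlap. Since the markers were lower in the knockouts, 93.3% of all tested genes were relatively higher in all knockouts than in all controls, with a median difference of 2.10, beside 6 of the 10 genes. Of the 10, Nnmt alone lay above that median. These relative levels are a description with no test, because the markers themselves differed between the groups.

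**Figure D4:**
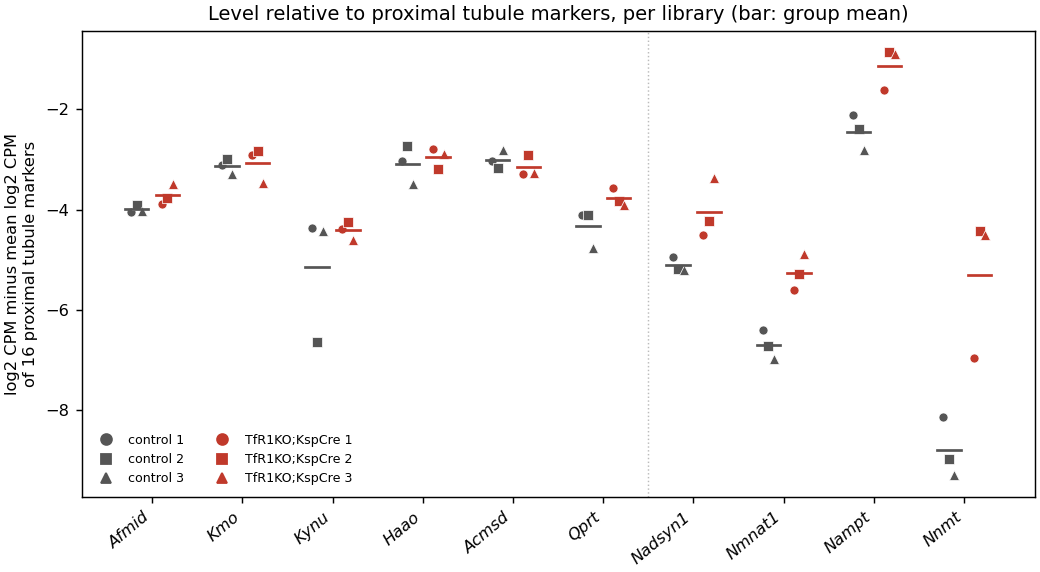
Log2 CPM of each gene minus the mean log2 CPM of 16 proximal tubule markers in the same library, for 3 control (grey) and 3 TfR1KO;KspCre (red) libraries, with bars at group means. The groups overlap for Kmo, Kynu, Haao and Acmsd. The knockouts lie above the controls for Afmid (by 0.28), Qprt (0.56), Nampt (1.31), Nadsyn1 (1.07), Nmnat1 (1.44) and Nnmt (3.498), where the median over all tested genes is 2.10.

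The wider pathway was read through 46 further genes in 4 lists, of which 43 were tested, 12 called lower and 2 called higher, beside 6.64% and 10.6% of all tested genes, with a median log2 fold change of -0.45 beside 0.02. Leaving out any library but knockout 1 left 0 edgeR calls among them in either direction, with 12 to 15 lower and 2 to 5 higher at an unadjusted p under 0.05. In the list of tryptophan entry and kynurenine side branches 5 of 7 genes were tested and 3 called lower. The dioxygenases that open tryptophan, Tdo2 and Ido1, were at most 0.540 CPM in any library and were not tested, and Ido2 was not called at 10.9, 26.0 and 8.16 CPM in controls and 7.31, 0.853 and 0.766 CPM in knockouts (log2 fold change -2.31 ± 0.933, edgeR adjusted p = 0.118). Aadat, a transaminase that diverts kynurenine to kynurenic acid, stood at 1242, 411.7 and 1034 CPM in controls and 143.7, 34.1 and 46.4 CPM in knockouts. Its log2 fold change of -3.58 ± 0.692 (edgeR adjusted p = 0.0305) was the most negative of the tested genes in the 4 lists, and control 2 was again the lowest control. The transaminases Ccbl2 (-2.12 ± 0.520, adjusted p = 0.0400) and Ccbl1 (-1.24 ± 0.284, adjusted p = 0.0362), which also make kynurenic acid, fell too.

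Of 10 further salvage and shared genes 9 were tested, with 4 called lower and none higher, beside 6.64% and 10.6% of all tested genes. Fold changes were negative in 7 and positive in 2, the larger in Nmnat2 (log2 fold change 1.38 ± 0.590, edgeR adjusted p = 0.133). Nmrk1, the nicotinamide riboside kinase, read 81.6, 107.3 and 93.3 CPM in controls and 57.0, 30.9 and 32.4 CPM in knockouts (log2 fold change -1.23 ± 0.264, edgeR adjusted p = 0.0326). Naprt, which brings nicotinic acid into the pathway, had a log2 fold change of -1.03 ± 0.253 (adjusted p = 0.0404). The mitochondrial NAD kinase Nadk2 (-1.10 ± 0.269, adjusted p = 0.0397) and the transhydrogenase Nnt (-1.08 ± 0.241, adjusted p = 0.0346) fell by similar amounts. The cytosolic kinase Nadk (-0.30 ± 0.198, adjusted p = 0.290) and the phosphorylase Pnp (0.03 ± 0.172, adjusted p = 0.913) had overlapping groups.

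**Figure D5:**
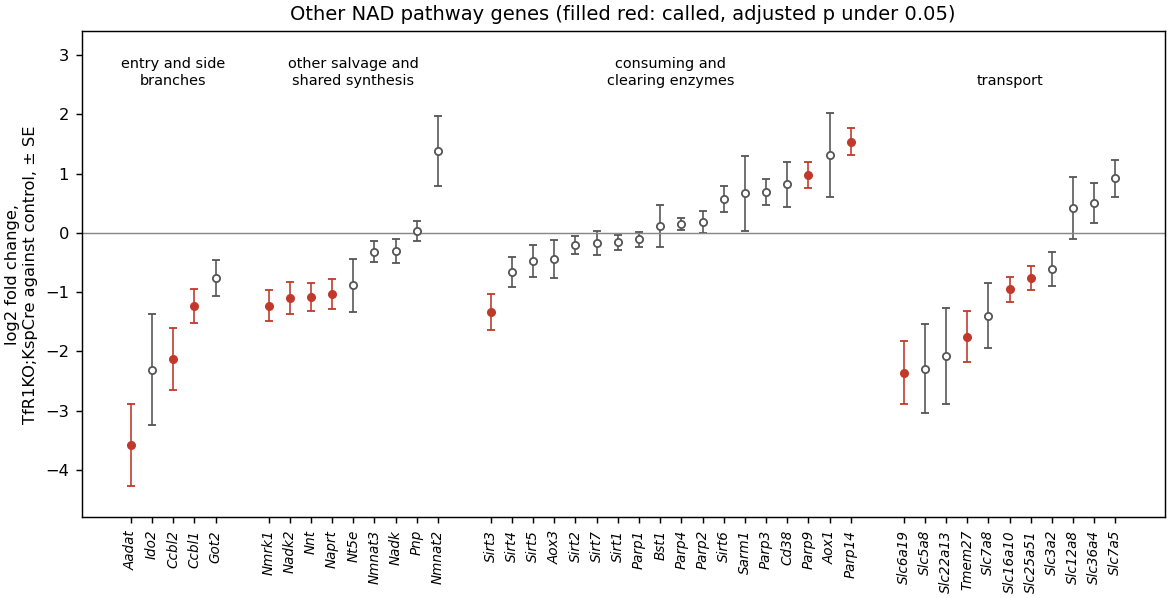
Log2 fold change of 43 tested pathway genes in 3 TfR1KO;KspCre libraries against 3 controls with standard errors (edgeR), grouped by list, with called genes filled red. Aadat is lowest at -3.58, the 4 called salvage genes lie between -1.23 and -1.03, and Parp9 (0.97) and Parp14 (1.54) are the called genes above 0.

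Of 18 NAD consuming and nicotinamide clearing enzymes, all tested, 2 rose and 1 fell, shares close to the 10.6% and 6.64% over all tested genes, and their summed level was 105.2%, 115.2% and 107.7% of the control mean in knockouts 1 to 3. Parp14, an ADP-ribosyltransferase known as an interferon-responsive gene, stood at 41.5, 32.9 and 32.8 CPM in controls and 73.0, 123.5 and 114.9 CPM in knockouts (log2 fold change 1.54 ± 0.228, edgeR adjusted p = 0.0276). Parp9, its partner in that response, rose by 0.97 ± 0.212 (adjusted p = 0.0332). Sirt3, the main mitochondrial deacetylase, fell from 70.3, 86.4 and 91.3 CPM to 49.4, 24.1 and 24.6 CPM (log2 fold change -1.34 ± 0.304, adjusted p = 0.0357). The more general consumers Sirt1 (-0.16 ± 0.130, adjusted p = 0.388) and Parp1 (-0.11 ± 0.126, adjusted p = 0.547) had overlapping groups and were not called, and nor was Cd38 (0.82 ± 0.374, adjusted p = 0.154).

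Of 11 transporters of tryptophan and NAD precursors, all tested, 4 were called lower and none higher, beside 6.64% and 10.6% of all tested genes. Slc7a5 lay higher in all knockouts than in all controls but was not called (log2 fold change 0.92 ± 0.318, edgeR adjusted p = 0.0816). Slc6a19, the apical carrier that reabsorbs tryptophan and other neutral amino acids in the proximal tubule, read 333.3, 277.8 and 701.3 CPM in controls and 128.9, 88.4 and 38.5 CPM in knockouts (log2 fold change -2.36 ± 0.534, edgeR adjusted p = 0.0355). Tmem27 (collectrin), which that carrier needs to reach the membrane, fell by 1.75 on the log2 scale (adjusted p = 0.0414). The aromatic amino acid carrier Slc16a10 (-0.95 ± 0.215, adjusted p = 0.0355) and the mitochondrial NAD carrier Slc25a51 (-0.76 ± 0.200, adjusted p = 0.0452) also fell. Slc5a8, which carries nicotinate, was not called, with control 2 the highest at 506.6 CPM beside 223.7 and 140.4 in the other controls and 118.3, 39.2 and 19.5 in knockouts (log2 fold change -2.30 ± 0.750, adjusted p = 0.0718).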

How the data were processed

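Poly-A RNA of 6 whole mouse kidneys was sequenced single-end after TruSeq preparation. The authors deposited 1 table of unnormalised read counts for each group: per the labels and the study's methods, they used CASAVA 1.8.2, Trimmomatic, TopHat2 2.0.11 on mm9 and HTSeq on uniquely mapped reads. The annotation and strand setting of the counting are not given in the sources used here.

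Groups came from the sample titles. Replicates differed by more than sampling noise (chi-square per degree of freedom 52.9 to 125.5 between pairs). Counts were tested with edgeR 4.0.16 (TMM, filterByExpr with a minimum count of 10, quasi-likelihood test in R 4.3.3, Benjamini-Hochberg over 15171 genes), with no covariate, after checking the fit on simulated data. A standard error is the log2 fold change divided by the square root of F. Ratios used log2 of (count + 0.5) and exact permutation tests (scipy 1.17.1). Levels per kb used GENCODE M1 exonic bases. Promoters were read for 4 of the 6 kynurenine route genes, and the others are not reported here.

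Named were the 10 genes, the called pathway genes, Tfrc and Cdh16, and genes not called or markers given as examples were added after their values were seen. The genes and lists were chosen with earlier results of these data known. Alternatives were 3 scalings, 2 filters, DESeq2 1.42.0, limma-voom 3.58.1, the newer quasi-likelihood version, a replicate block, an Xist to Y covariate, and leaving out each library.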

Additional observations from a re-analysis of the deposited data

How the results depend on the processing

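With 3 libraries a group, calls near the threshold moved with the setting. Lower calls among the 10 genes numbered 4 and became 7 with DESeq2's Wald test, and 0 with the replicate number as a block or with the Xist to Y covariate (edgeR, 7 lower at an unadjusted p under 0.05 in each). Leaving out 1 library gave 0 to 8, with 0 without any control, knockout 2 or knockout 3. The higher call, Nnmt, became 0 with DESeq2 size factors, no filter, limma-voom, the block and the covariate, and 0 to 1 with a library left out, with 1 at an unadjusted p under 0.05 in each of these. Among the pathway genes the 2 higher calls became 6 with library size alone, 4 with DESeq2's Wald test, 0 with the block (6 unadjusted), 0 with the covariate (2 unadjusted) and 0 to 4 with a library left out. The 12 lower calls became 0 with the block (17 unadjusted), 0 with the covariate (14 unadjusted) and 0 to 17 with a library left out. In the block and covariate fits, and without any 1 control, edgeR called 0 of all tested genes in either direction, and fewer samples or residual degrees of freedom are part of their construction. Otherwise the cause was not tested.

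Over the 10 genes and 16 alternatives, 108 of 160 values kept their direction and their side of the threshold, 13 passed it anew, 39 lost it and 0 changed sign. Library size alone shifted the all-gene median of log2 fold changes from 0.02 to 0.29, and Nadsyn1 then read -0.73 (adjusted p = 0.0508). Deviations of libraries with the same number correlated at -0.143, 0.0247 and 0.216, and those of libraries with other numbers at -0.266 to 0.215. These few values gave no sign of pairing by number and cannot exclude one. The block left the ratio differences at -0.70, 0.78 and 2.36 (exact permutation p = 0.5, 0.5 and 0.25), and leaving out a library gave -0.89 to -0.39 for Acmsd to Qprt, 0.59 to 1.14 for Nampt to Qprt and 2.03 to 2.98 for Nnmt to Nampt. Counts of the 10 genes were lowest for Nnmt in control 3, at 29.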
